A study of Mus musculus with 10 samples.

Results

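Pseudogenes are copies of genes, or former genes, that no longer encode the original protein. Processed pseudogenes arose from reverse-transcribed mRNA and lack introns, unprocessed pseudogenes arose by duplication of a gene, and unitary pseudogenes are genes that lost their function without a working copy elsewhere. Monomethylation of a lysine of histone H4 (H4K20me1) is written by KMT5A, often covers the bodies of transcribed genes and the inactive X chromosome, and is converted to higher methylation states by KMT5B and KMT5C. The H4K20me1 peaks described here are the autosomal ones shorter than 50000 bases that the deposited annotation lists with a pseudogene. There were 520 such peaks among 44925 H4K20me1 peaks in all and 41008 on autosomes.

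CUT&RUN measured the mark, a method that cuts out and sequences the DNA around an antibody bound in permeabilised cells. The cells were cultured muscle stem cells (MuSCs, the satellite cells of skeletal muscle), purified by magnetic sorting from adult mice treated with tamoxifen. Ctrl cells carried Pax7CreERT with wild-type Kmt5b (labelled Pax7CreERT/Suv4-20h1WT), and sKO cells carried Pax7CreERT with Kmt5b deleted (labelled Pax7CreERT/Suv4-20h1KO), so that Cre was active only in cells expressing Pax7 and both groups carried it. Each genotype had 2 libraries for H4K20me1 and 2 for the elongating, serine-phosphorylated form of RNA polymerase II (Pol II S2P), and 1 IgG library that was not analysed here. The study calls the libraries of a group biological replicates, but the labels do not say whether they came from separate mice. P-values measure only the spread between these libraries, and the spread used for a single peak was set largely from all autosomal peaks of similar score.

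Every value is a score, the coverage of a peak that the authors normalised by spike-in, given as a whole number and not divided by peak length. The autosomal H4K20me1 total was 13533657 and 18103713 for Ctrl against 29655556 and 32238286 for sKO. The 3 H4K20me1 peaks of Kmt5b itself summed to 1332 and 1740 in Ctrl against 1934 and 2196 in sKO, without overlap. Its 2 Pol II S2P peaks summed to 24 and 62 in Ctrl against 48 and 22 in sKO, which overlap. Neither antibody checks the genotype. Of 7 satellite cell markers, Pax7, Myod1, Itga7, Vcam1 and Des had a Pol II S2P peak, whereas Myf5 and Cdh15 had none. Of 4 genes of differentiated muscle, Myog and Ckm had a Pol II S2P peak and Acta1 and Myh4 did not. Among markers of other cells of muscle, Ptprc, Pdgfra, Cd34, Adgre1 and Cdh5 had no Pol II S2P peak, and Pecam1 had 2.

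The 520 peaks were listed with 475 pseudogenes, of which 444 had 1 peak and 31 had 2 or more. Processed pseudogenes accounted for 299 peaks and unprocessed ones for 87. The annotation marks some pseudogenes as transcribed, and of these 34 peaks belonged to processed, 45 to unprocessed and 12 to unitary pseudogenes. A further 23 peaks belonged to unitary pseudogenes and 16 to polymorphic ones, which are functional in some strains, and 1 each to an IG_D, an IG_V, a TR_J and an unspecified pseudogene. GENCODE M21 or the deposited table gave a name for 500 of the peaks, and the other 20 are given by identifier.

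The peaks were far wider than most of the pseudogenes they were named for. Peak length ran from 1200 to 49200 bases with a median of 8200, and the median length of the pseudogene was 927.5 bases. In 289 peaks the pseudogene lay wholly inside the peak, and in 94 the deposited overlap fraction, rounded to 0.1, was 1. It was at most 0.1 in 313. A score is thus, for most members, that of a chromatin domain that holds a pseudogene and not that of the pseudogene alone. In 515 of the 520 peaks no base belonged to a protein-coding gene of GENCODE M21. The other 5 were 4 peaks of Rnls, which codes for renalase, and 1 of Mfsd4b2, both listed as protein-coding in that release. At the length limit, the longest peaks included were those of Gm9347 (49200 bases), Gm43631 (44800) and Gm45514 (43400), and those just excluded were Rpl17-ps6 (51800), Gm43932 (53000) and ENSMUSG00000118581 (61000).

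Sequence was read to see how closely these pseudogenes resemble working genes. A match to a mouse coding sequence was found by blastn for 460 members, with a median identity of 86.3% over pseudogenes. Among 312 processed pseudogenes with a match, 245 had an alignment gap that shifts the reading frame of the parent and 186 an in-frame stop codon, and 50 had neither. Some matches cover only part of the parent coding sequence. Of the 153 aligned over at least 90% of it, 24 had neither. Of the 318 peaks with a matched processed pseudogene, 241 held the whole match, 53 part of it and 24 none. The parents numbered 217, of which 155 (71.4%) were listed with a Pol II S2P peak in these cells, against 45% of all 21670 coding genes searched. An H4K20me1 peak was listed for 51.2% of the parents and 55.4% of the coding genes. Gapdh, a glycolytic enzyme, was the parent of 10 members at 8 pseudogenes, the cadherin gene Cdh11 of 9 members at 6 pseudogenes, Rps2 of 9, Rpl29 of 8, and Rpl7a and Rps6 of 6 each, the last 4 being ribosomal proteins.

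The following stretches show what such copies look like inside a peak. They are GRCm38 reference sequence, the build of all coordinates given here, 5′ to 3′ on the strand of the gene, with capitals marking bases that differ from the parent. The first 3 are Gapdh pseudogenes, Gm4795 at chr10:45006120-45006175 on the plus strand, Gm10364 at chr14:55041782-55041837 on the plus strand and Gm2445 at chr13:98403018-98403073 on the minus strand, set beside bases 89 to 144 of the Gapdh coding sequence.
Gm4795: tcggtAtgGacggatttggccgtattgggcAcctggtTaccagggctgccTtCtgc
Gm10364: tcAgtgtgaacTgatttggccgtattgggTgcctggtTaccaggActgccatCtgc
Gm2445: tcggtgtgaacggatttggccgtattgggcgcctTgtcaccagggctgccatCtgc
Gapdh: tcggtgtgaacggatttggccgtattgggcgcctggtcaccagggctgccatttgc
Gm4795 and Gm10364 each differed from Gapdh at 6 of these 56 bases and Gm2445 at 2.

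Younger or better conserved copies are shown by Gm10250, a copy of Atp5h (a subunit of mitochondrial ATP synthase) at chr15:5121016-5121135 on the minus strand, and by Gm12396, a copy of Psenen (a subunit of gamma-secretase) at chr4:40775445-40775564 on the minus strand. Both stretches cover the first 120 bases of the coding sequence. The Gm10250 stretch differed from Atp5h at 1 base, and the Gm12396 stretch was identical to Psenen.
Gm10250: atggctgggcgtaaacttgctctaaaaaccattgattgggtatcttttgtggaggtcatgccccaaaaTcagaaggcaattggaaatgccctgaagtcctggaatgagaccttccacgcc
Gm12396: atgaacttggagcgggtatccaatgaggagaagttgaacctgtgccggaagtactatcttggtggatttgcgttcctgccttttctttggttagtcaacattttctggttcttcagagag
The authors sequenced read pairs and kept only reads that aligned to a single place. The measure that follows takes single windows and does not take account of pairs. Repeated sequence in a peak was therefore measured as the percentage of its 75-base windows, taken every 100 bases, whose exact sequence occurs more than once in the primary assembly. The median of this repeat share was 1.16% over the 520 members and 0 over peaks of protein-coding genes, of lncRNAs and of no gene. It was 0 for 195 members and over 25% for 18 members, or 3.46%, against 0.155% of the peaks with no gene and 0.0665% of those of protein-coding genes.

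H4K20me1 was higher in sKO than in Ctrl over nearly all pseudogene peaks. The Ctrl libraries had a median score per kb of peak of 17.2 and 25.1 and the sKO libraries one of 44.5 and 48.9, a mean of 21.2 ± 5.55 against 46.7 ± 3.08 (SD of the library medians, n = 2 each). Both sKO medians were above both Ctrl medians. The sKO mean was above the Ctrl mean in 516 members and below it in 4. With limma on log2(score + 1) over all autosomal peaks with a mean score above 50, all members but 1 were tested, and that one had a mean of 46.3.

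**Figure D1:**
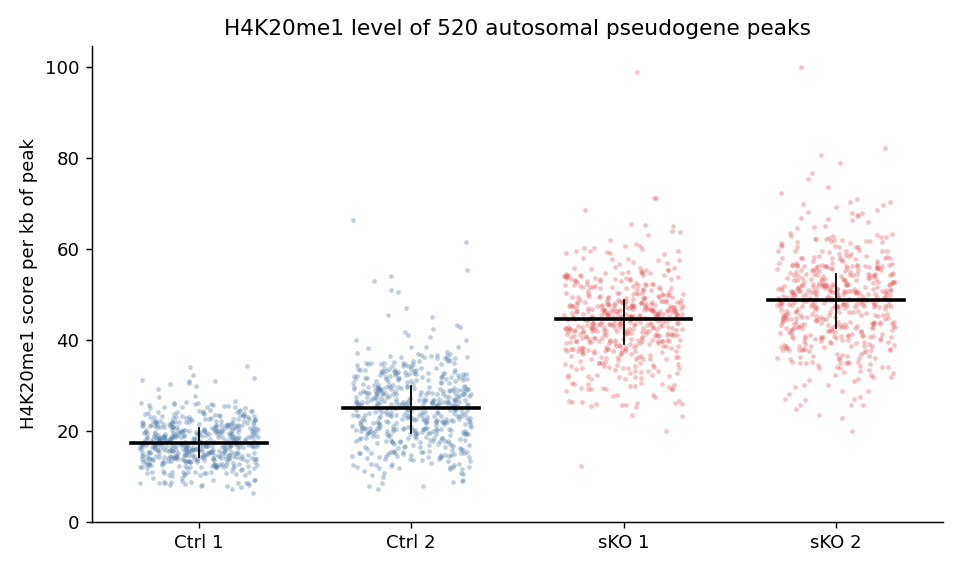
H4K20me1 score per kb of peak (linear axis) of the 520 autosomal pseudogene peaks in each of the 4 libraries, with 1 point per peak, a thick bar at the median and a thin line over the interquartile range. The medians are 17.2 and 25.1 in Ctrl against 44.5 and 48.9 in sKO, and the clouds of the 2 genotypes overlap at their edges.

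Of these, 455 (87.7%) were called higher in sKO, with a log2 fold change over 0.5 and p under 0.1 after Benjamini-Hochberg adjustment, against 90.1% of the 40902 autosomal peaks tested. None was called lower by limma, and none was lower at an unadjusted p under 0.05, at which 438 were higher. Over all autosomal peaks 0.00244% were called lower. Both sKO libraries were above both Ctrl libraries in 483 of the tested members (93.1%), against 93.9% of all tested peaks, and in no member were both below. The shares of the members lay close to the background on each count. Leaving out 1 library leaves only the pair of the other genotype to set the variance. Calls made without a library therefore do not show what rested on that library.

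The median log2 fold change of the members was 1.15, against 1.14 for all tested autosomal peaks, and single members ran from -0.36 to 2.65. Peaks with no gene had a median of 1.20, those of lncRNAs 1.24 and those of protein-coding genes 1.15. The excess of 0.0063 over all peaks was within the spread of the Ctrl pair, in which the pseudogene peaks stood at -0.02 and 0.02 relative to all peaks on the log2 scale. Because most peaks rose, the libraries were also scaled to equal totals. On that scale 125 members were called higher and 16 lower, against 22.6% and 4.41% of all tested peaks, and the median log2 fold change was 0.17 both for the members and for all peaks. The pseudogene peaks held 0.699% and 0.723% of the autosomal score in Ctrl against 0.782% and 0.792% in sKO. Of the score in peaks under the length limit alone, they held 1.03% and 1.07% in Ctrl against 1.08% and 1.09% in sKO.

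The members differed more among themselves by kind of pseudogene than as a whole from other peaks. Processed pseudogenes had a median log2 fold change of 1.19, with 271 of 299 (90.6%) called higher, against 90.1% of all tested peaks. Transcribed processed ones had 1.56, with 30 of 34 (88.2%) called. Unprocessed pseudogenes had a median of 0.98, with 66 of 86 tested peaks (76.7%) called, and transcribed unprocessed ones 0.95, with 35 of 45 (77.8%) called. Duplicated copies thus lay below the median of all peaks and retrotransposed ones at or above it. On equal totals 92 of 333 processed members of both kinds were called higher and 5 lower. Of 131 unprocessed members 18 were called higher and 9 lower, against 22.6% and 4.41% of all tested peaks. The median of the unprocessed members less that of the processed ones was -0.25 on the log2 scale and lay between -0.33 and -0.14 when any 1 library was left out, the values without Ctrl library 1 and without Ctrl library 2.

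Unitary pseudogenes, such as Gm2716, had a median log2 fold change of 1.24, with 22 of 23 called higher, against 90.1% of all tested autosomal peaks. The exception was Best4-ps, at 0.28. The 12 transcribed unitary ones had a median of 1.22, with all 12 called. All 16 polymorphic pseudogene peaks were called, with a median of 1.39. These 16 came from few genes. Atp10d, which codes for a phospholipid-transporting P4-ATPase, had 7 of them, with log2 fold changes of 1.01 and above, and Rnls had 4, from 1.01 to 1.83. Dcdc5, a doublecortin domain gene listed as transcribed unitary, had 5 peaks over a gene of 402816 bases, from 0.95 to 1.39. Every one of the peaks of these 3 genes was called higher in sKO, as were 90.1% of all tested autosomal peaks.

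**Figure D2:**
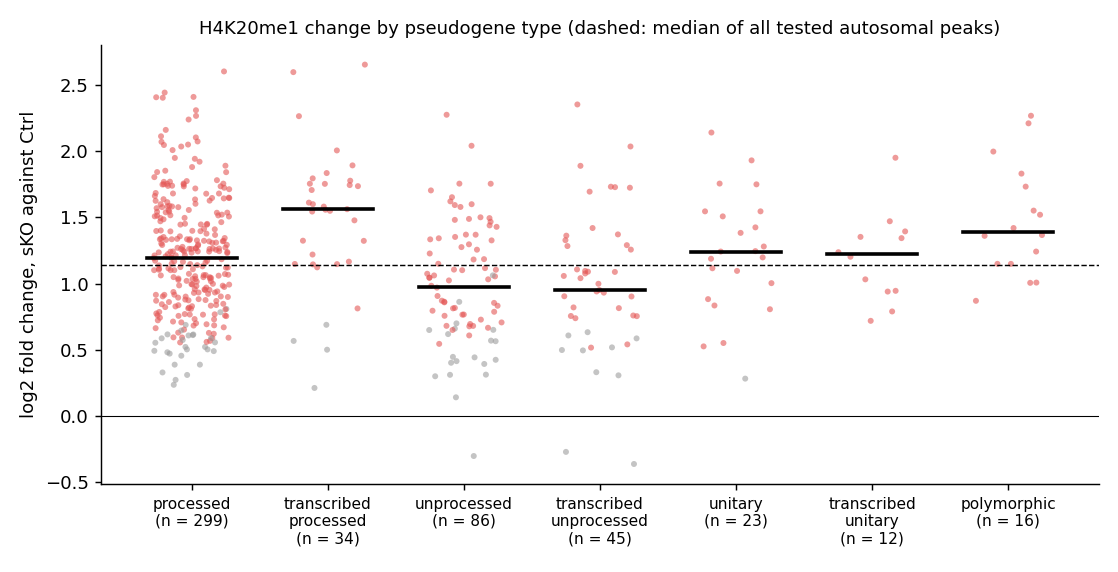
Log2 fold change of H4K20me1, sKO against Ctrl, of each tested member by pseudogene type, with the number of peaks in brackets, red points for peaks called higher, grey points for peaks not called and a black bar at the median. The medians of the processed types, 1.19 and 1.56, lie above those of the unprocessed types, 0.98 and 0.95, and the dashed line marks the median of all tested autosomal peaks at 1.14.

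For each type the member with the highest score was examined. The peak of Gm9347 (chr7:136811601-136860800), a processed copy of Phgdh, an enzyme of serine synthesis, scored 995 and 1413 in Ctrl against 2284 and 2518 in sKO, and the log2 values differed by 1.02 ± 0.27 (SE, adjusted p = 0.000404). The peak of Atp10d (chr5:72261201-72294400) scored 649 and 834 in Ctrl against 1813 and 1974 in sKO, and the log2 values differed by 1.36 ± 0.27 (adjusted p = 2.79e-06). For both, the genotypes did not overlap. A930017M01Rik (chr15:44810601-44839800), a transcribed processed pseudogene, scored 484 and 663 in Ctrl against 1507 and 1831 in sKO, and the log2 values differed by 1.55 ± 0.27 (adjusted p = 1.22e-07), which was also called on equal totals at 0.57.
The corresponding peaks of the other types were lower in fold change for duplicated copies. Ppp4r1l-ps, a relic of a protein phosphatase 4 regulatory subunit gene, scored 726 and 1088 in Ctrl against 1784 and 1614 in sKO, and the log2 values differed by 0.93 ± 0.27 (adjusted p = 0.000993). Gm48618, an unprocessed pseudogene, scored 830 and 1118 in Ctrl against 1652 and 1628 in sKO, and the log2 values differed by 0.77 ± 0.27 (adjusted p = 0.00626). Dcdc5 scored 335 and 516 in its strongest peak in Ctrl against 1082 and 1108 in sKO, and Gm2716 scored 383 and 449 in Ctrl against 920 and 987 in sKO, with changes of 1.39 and 1.20. In each of these peaks both sKO libraries were above both Ctrl libraries. The calls of Gm9347, Ppp4r1l-ps and Gm48618 were lost without either sKO library, where the Ctrl pair alone set the variance.

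The 6 members with the largest rises among those called without overlap were all processed pseudogenes with low scores in Ctrl. The peak listed with Magef1 (ENSMUSG00000116632, chr16:21327001-21334200), which is named for a melanoma antigen family member, scored 55 and 61 in Ctrl against 334 and 410 in sKO, and the log2 values differed by 2.65 ± 0.37 (SE, adjusted p = 4.28e-11). Gm5976 (chr1:52500801-52503600), a Gapdh copy, scored 24 and 22 in Ctrl against 182 and 115 in sKO, and the log2 values differed by 2.60 ± 0.60 (adjusted p = 4.42e-05). The Gm5976 peak lay 122 bases from the start of Nab1 and held 365 of the 994 bases matched to Gapdh. Gm6916 (chr7:128317201-128321800), a transcribed copy of Tma7, a small protein associated with the translation machinery, scored 29 and 41 in Ctrl against 183 and 250 in sKO, and the log2 values differed by 2.60 ± 0.47 (adjusted p = 4.02e-07). The Gm6916 peak lay wholly in that 26022-base pseudogene but held 0 bases of the match to Tma7.
Gm12396 (chr4:40772401-40777800), the identical Psenen copy printed above, scored 44 and 39 in Ctrl against 240 and 220 in sKO, and the log2 values differed by 2.44 ± 0.44 (adjusted p = 3.44e-07). Gm20940 (chr3:95958601-95969800), a processed pseudogene, scored 98 and 103 in Ctrl against 507 and 572 in sKO, and the log2 values differed by 2.41 ± 0.32 (adjusted p = 4.43e-12). Gm10060 (chr8:19784401-19787600), matched over 105 bases to the p97 cofactor gene Nsfl1c, scored 25 in both Ctrl libraries and 137 in both sKO libraries, a change of 2.41 ± 0.59 (adjusted p = 0.000128). Its repeat share was 71.9%. All 6 calls held without any 1 library and on equal totals, where the log2 fold changes ran from 1.43 to 1.68.

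At the other end, 3 members had a negative log2 fold change, and 2 of them belonged to 1 gene. Gm5373, a transcribed unprocessed pseudogene on chromosome 8, had a peak at chr8:71820201-71837400 that scored 415 and 910 in Ctrl against 473 and 483 in sKO, and the log2 values differed by -0.36 ± 0.28 (SE, adjusted p = 0.203). Its other peak, at chr8:71857201-71859800, scored 81 and 160 in Ctrl against 83 and 107 in sKO, and the log2 values differed by -0.27 ± 0.43 (adjusted p = 0.538). In both, 1 Ctrl library lay below and 1 above the sKO libraries, and neither was called. Without Ctrl library 1 both were called lower, at -0.93 and -0.76, and on equal totals they were called lower at -1.34 and -1.24.
Gm2808 (chr17:6519201-6521000), an unprocessed copy with 99.7% identity to part of Tulp4, a tubby-like gene, scored 57 and 82 in Ctrl against 47 and 65 in sKO, and the log2 values differed by -0.30 ± 0.58 (adjusted p = 0.608). The Gm2808 peak held 0 of its 3158 matched bases. The repeat share of the 3 peaks with a negative change was 44.2%, 65.4% and 61.1%. A window of each of the last 2 peaks is shown as an example of sequence from which a read of that length, taken without its mate, has no single placement. They are chr8:71858301-71858375, present 8 times in the assembly, and chr17:6519501-6519575, present 3 times, both on the plus strand.
Gm5373: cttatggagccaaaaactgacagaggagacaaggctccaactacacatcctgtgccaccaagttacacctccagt
Gm2808: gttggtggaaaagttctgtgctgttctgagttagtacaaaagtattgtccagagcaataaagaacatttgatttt

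The remaining 3 of the lowest changes had little repeated sequence. CT033759.4 (chr17:32601801-32605000), an unprocessed copy of the cytochrome P450 gene Cyp4f16, scored 47 and 107 in Ctrl against 75 and 82 in sKO, and its repeat share was 6.25%. Gm18252 (chr10:34881001-34883800), matched to Smn1, a gene of snRNP assembly, scored 56 and 79 in Ctrl against 71 and 84 in sKO, with a repeat share of 0. In both the genotypes overlapped. The peak of Gm5578 (chr6:112599601-112606000), a full-length copy of Brox with 99.4% identity, held 457 of the 1233 matched bases. It scored 194 and 230 in Ctrl against 245 and 253 in sKO, and the log2 values differed by 0.24 ± 0.32 (SE, adjusted p = 0.467). On equal totals it was called lower at -0.74.

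**Figure D3:**
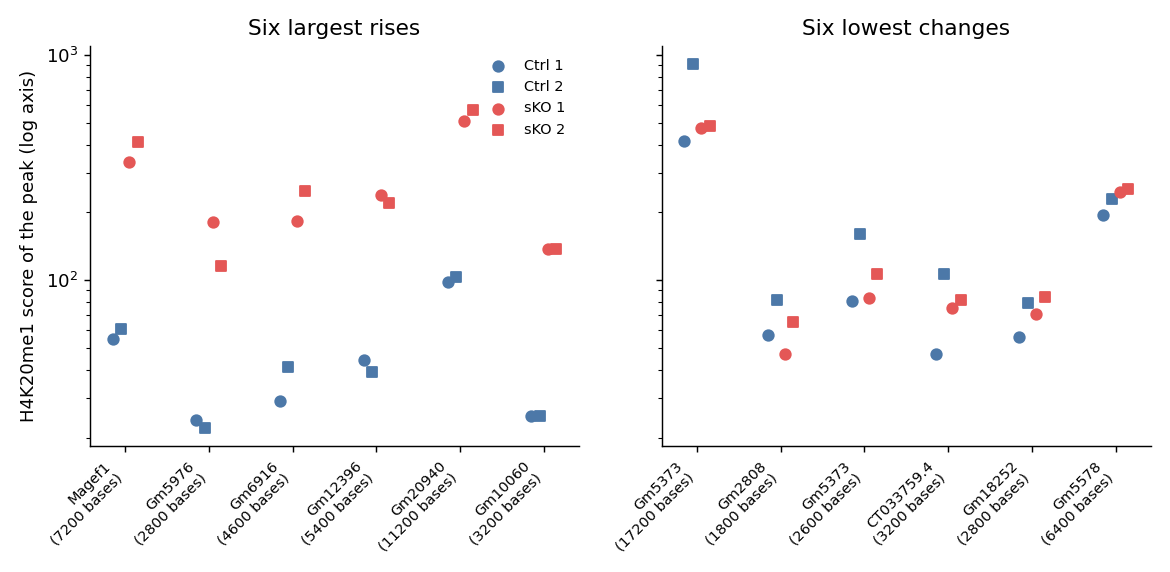
H4K20me1 scores (log axis) in the 4 libraries of the 6 members with the largest rises and the 6 with the lowest log2 fold changes, with blue for Ctrl, red for sKO, circles for library 1, squares for library 2 and peak length in brackets. In the left panel every red symbol lies above the blue ones of its peak, from 22 and 24 in Ctrl to 115 and 182 in sKO for Gm5976, whereas in the right panel Ctrl library 2 of the longer Gm5373 peak, at 910, lies above all others.

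Members rich in repeated sequence had smaller changes. The 18 members with a repeat share over 25% had a median log2 fold change of 0.63, with 6 called higher, and the other 501 tested members 1.17, with 449 called. The median of the 18 less that of the others was -0.53, from -0.73 without Ctrl library 1 to -0.18 without Ctrl library 2. Of the 18, 11 lay on chromosome 8 and 14 were unprocessed. In other autosomal peaks with a repeat share over 25%, 34 of which were tested, the median was 0.84. The share of 25% was chosen after the values were seen, and whether repeated sequence has a part in the smaller changes was not tested.

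**Figure D4:**
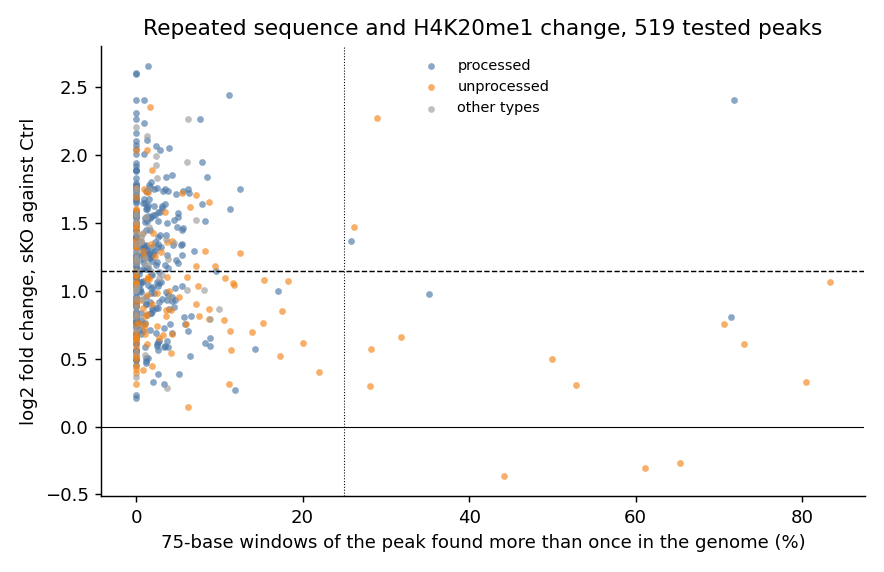
Log2 fold change of H4K20me1, sKO against Ctrl, of the tested members against the percentage of 75-base windows of the peak found more than once in the assembly, coloured by kind of pseudogene. Most of the 18 points right of the dotted line at 25% lie below the dashed line, the median of all tested autosomal peaks at 1.14, with Gm10060 at 71.9% and 2.41 as an exception.

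Repeat-rich members were also among those with the highest level in Ctrl per length of peak. Over all members the Ctrl mean ran from 7.61 to 47.9 per kb, with a median of 21.5. The highest was Gm21182 (chr8:20557401-20558800), matched to the kinase gene Pim2, at 47.9 per kb in Ctrl and 80.4 in sKO. Its scores were 41, 93, 85 and 140 in Ctrl 1, Ctrl 2, sKO 1 and sKO 2 and its repeat share 71.4%, and the peak held 86 of the 791 matched bases. The smaller Gm5373 peak had 46.3 per kb in Ctrl, Gm6483, matched to the cadherin gene Cdh11, 40.6, Gm47672, a copy of Tcl1b2, 39.5, Gm2808 38.6 and the larger Gm5373 peak 38.5. These 6 were chosen by Ctrl level, which is also the base of the fold change, a choice that favours small changes and overlap. None of the 6 was called in either direction on the deposited scale, and their Ctrl and sKO scores overlapped in each. Those of Gm47672, for instance, were 143 and 189 in Ctrl against 230 and 172 in sKO. Without Ctrl library 2, the changes of Gm21182 and Gm6483 were 1.39 and 0.84. On equal totals both Gm5373 peaks (-1.34 and -1.24), Gm2808 (-1.27), Gm47672 and Gm6483 were called lower, and Gm21182 (-0.16) was not called. Of the 9 peaks matched to Cdh11, all unprocessed and on chromosome 8, 4 were called higher, against 90.1% of all tested peaks. Their log2 fold changes ran from 0.30 to 1.47 and their repeat shares from 4.35% to 83.3%.

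Pseudogenes were then grouped by the gene they resemble. Copies of ribosomal protein genes formed the largest family, with 101 members, of which 93 (92.1%) were called higher, against 90.1% of all tested peaks, and a median log2 fold change of 1.24, against 1.14. Gm43631, a copy of Rpl22l1, lay in a peak that scored 819 and 948 in Ctrl against 2116 and 2325 in sKO, and Gm45514, matched to Rps2, in one that scored 1018 and 1401 in Ctrl against 1889 and 2192 in sKO. Their log2 fold changes were 1.33 and 0.77, and the genotypes did not overlap in either. On equal totals 26 of the 101 were called higher and 1 lower, against 22.6% and 4.41% of all tested peaks. The call of Gm45514 was lost without sKO library 1, at 0.88, and without sKO library 2, at 0.66.

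The 10 Gapdh members had a median log2 fold change of 1.69, with 9 called higher, against 1.14 and 90.1% for all tested peaks, and on equal totals 7 were called higher and 1 lower. The peak of Gm4795 (chr10:44994001-45014200) scored 294 and 270 in Ctrl against 839 and 919 in sKO, and the log2 values differed by 1.64 ± 0.28 (SE, adjusted p = 7.3e-08), and that of Gm10364 (chr14:55032601-55048600) 298 and 264 in Ctrl against 821 and 900 in sKO, and the log2 values differed by 1.61 ± 0.28 (adjusted p = 1.14e-07). Gm4804 had 3 peaks within its 122684 bases, each with a change between 1.74 and 1.78, and none of these peaks held any of the 1006 bases matched to Gapdh. Gm2445 (chr13:98403001-98418400), which of the 3 stretches printed above is the closest to Gapdh, was the exception, with 461 and 538 in Ctrl against 695 and 672 in sKO. Its change was 0.46 ± 0.28 (adjusted p = 0.108), the genotypes did not overlap, and the peak held 83 of the 986 matched bases. Without Ctrl library 2 the change of Gm2445 was 0.57, and on equal totals it was called lower at -0.52.

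In the smaller families of processed copies the counts were about those of any peaks, 90.1% of which were called higher. All 8 members that resemble cytoskeletal genes, all 9 that resemble chromatin genes (Hmgb1, Hmgb2, Hmgn1, Npm1 and a histone gene) and all 7 that resemble genes of nuclear RNA-binding proteins were called higher, with median log2 fold changes of 1.31, 1.23 and 1.15. Copies of genes of mitochondrial respiration were called in 15 of 16 cases, with a median of 1.26. The 5 copies of Ppia, which codes for cyclophilin A, were all called, with a median of 1.05. Gm19024, a copy of the translation elongation factor gene Eef1a1, scored 99 and 117 in Ctrl against 371 and 541 in sKO, and the log2 values differed by 2.05 ± 0.32 (SE, adjusted p = 5.07e-09), and was 1 of 2 copies of translation factor genes, both called. Gm5119, a copy of the chromatin protein gene Hmgb2, scored 449 and 560 in Ctrl against 1088 and 1339 in sKO, and the log2 values differed by 1.27 ± 0.27 (adjusted p = 1.33e-05). The genotypes did not overlap in either peak.

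Pseudogenes of receptor, immune and zinc finger families are mostly products of gene duplication. Among 17 copies of olfactory and vomeronasal receptor genes 15 (88.2%) were called higher, against 90.1% of all tested peaks, with a median log2 fold change of 1.26. Olfr1398-ps1 (chr3:52233801-52251800) scored 279 and 364 in Ctrl against 932 and 997 in sKO, and the log2 values differed by 1.59 ± 0.28 (SE, adjusted p = 1.16e-07). Of 7 members that resemble MHC class I or other immune genes 5 (71.4%) were called, with a median of 0.91, and on equal totals 1 was called higher and 2 lower. Zinc finger copies were called in 5 of 6 cases (83.3%), with a median of 1.81. Zfp862-ps scored 83 and 95 in Ctrl against 296 and 405 in sKO, and the log2 values differed by 1.95 ± 0.34 (adjusted p = 1.63e-07). In the peaks of both genes the genotypes did not overlap. With so few members, these medians are descriptions of single families.

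Pol II S2P was found in 61 of the 520 members (11.7%), which together held 92 Pol II S2P peaks, against 28.6% of peaks of protein-coding genes, 12.6% of peaks of lncRNAs and 10.1% of peaks with no gene. Only 33 of the 92 overlapped the listed pseudogene. Members with a Pol II S2P peak had a median H4K20me1 log2 fold change of 1.32, with 56 of 61 called higher, and those without had 1.14, with 399 of 458 called. The difference of 0.18 compares with a spread between replicate libraries of 0.12 (SD) and was 0.08 without Ctrl library 2.

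Of the 92 Pol II S2P peaks, 44 had a mean score above 50 and were tested. By limma 0 were called higher, against 0.0447% of 22353 autosomal Pol II S2P peaks, and 0 lower, against 0.00447%, while 3 had an unadjusted p under 0.05. Both sKO libraries were above both Ctrl libraries in 10 of the 44, against 16.7% of all tested peaks, and below in 2, against 6.84%. The median log2 fold change was 0.23, against 0.11 for all tested peaks, and single peaks ran from -0.43 to 1.38. No change of the Pol II S2P peaks in these members was therefore detectable with 2 libraries per genotype, while 2 peaks were called higher on equal totals.

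**Figure D5:**
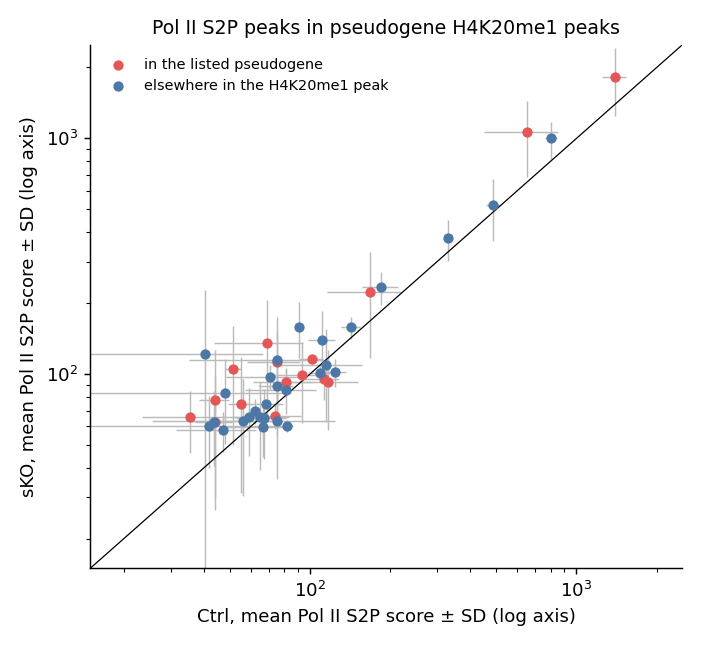
Mean Pol II S2P score ± SD (n = 2) in sKO against Ctrl, both on log axes, of the 44 tested Pol II S2P peaks that overlap a member, with red for peaks in the listed pseudogene, blue for the others and a line at equal values. The points follow the line, and the highest is the Best4-ps peak with 1286 and 1496 in Ctrl against 2240 and 1418 in sKO.

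Best4-ps and Gm10250 had the highest summed Pol II S2P scores of all members. Best4-ps, a unitary pseudogene of the bestrophin chloride channel family on chromosome 4, had a strongest Pol II S2P peak that scored 1286 and 1496 in Ctrl against 2240 and 1418 in sKO. Its H4K20me1 scored 265 and 277 in Ctrl against 309 and 352 in sKO, and the log2 values differed by 0.28 ± 0.30 (SE, adjusted p = 0.356), and on equal totals it was called lower at -0.70. The peak of Gm10250, the Atp5h copy printed above, lay 2756 bases from the start of Rpl37, with 776 and 836 in its strongest Pol II S2P peak in Ctrl against 1126 and 873 in sKO. Its H4K20me1 scored 179 and 187 in Ctrl against 265 and 289 in sKO, and the log2 values differed by 0.59 ± 0.32 (adjusted p = 0.0701), which was called. In the Best4-ps and Gm10250 peaks H4K20me1 of both sKO libraries was above that of both Ctrl libraries.
Gm29950, a copy of the cell cycle gene Cks1b 5913 bases from the start of S100a11, scored 114 and 134 for H4K20me1 in Ctrl against 282 and 234 in sKO, and 508, 794, 1325 and 797 for its strongest Pol II S2P peak in Ctrl 1, Ctrl 2, sKO 1 and sKO 2. Gm9182, 3747 bases from the start of Rps26, scored 200 and 236 for H4K20me1 in Ctrl against 600 and 754 in sKO, and the log2 values differed by 1.63 ± 0.29 (SE, adjusted p = 1.98e-07), while its strongest Pol II S2P peak scored 466 and 509 in Ctrl against 628 and 411 in sKO. H4K20me1 thus separated the genotypes in these peaks and Pol II S2P of Gm9182 did not. ENSMUSG00000118526, a unitary pseudogene on chromosome 2 whose peak lay 36512 bases from the start of Adnp, and ENSMUSG00000118576, an unprocessed one on chromosome 5 with 5 Pol II S2P peaks and 10640 bases from the start of Tomm7, had H4K20me1 changes of 1.24 and 0.87. Leaving out 1 sKO library, so that the Ctrl pair alone set the variance, ended 4 of these calls. Those of Gm10250 (0.66 without library 1, 0.53 without library 2) and ENSMUSG00000118576 (0.79 and 0.95) ended for either library. That of Gm29950 ended without library 1 (0.92) and that of ENSMUSG00000118526 without library 2 (1.06).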

How the data were processed

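CUT&RUN for H4K20me1 and Pol II S2P was analysed in 8 libraries, 2 per genotype and antibody. The authors trimmed reads with Trimmomatic 0.39, aligned them to mm10 (GRCm38) with STAR 2.7.3a keeping unique alignments, and removed duplicates with Picard 2.21.7. The processing notes also name SICER 0.0.41 and MACS2 2.1.1. The deposited values are a spike-in normalised coverage score per union peak, a whole number that is not a read count, and the read depth behind a single score cannot be recovered from it. The study states read totals per library, which were not used here, and precision is judged from replicates. The deposited fraction of each peak inside its gene is rounded to 0.1. The study's DESeq2 test was not applied. Deposited starts are multiples of 200 and were taken to count from 0, so 1 was added to starts and stops.

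Peaks on autosomes with a mean score above 50 were fitted together with limma 3.58.1 in R 4.3.3 (lmFit, eBayes with trend) on log2(score + 1), without a replicate block. This scale understates changes of low peaks. The SE and p-value of a peak draw largely on the trend over all peaks and little on its own replicates. Gm10060, with equal scores within each genotype, had an SE of 0.59, and the longer Gm5373 peak, with 415 and 910 in Ctrl, had 0.28. The procedure was tested on simulated data. Alternatives were another scaling, filter, pseudocount, variance model, membership, a replicate block and leaving out each library. Coding matches came from blastn (BLAST+ 2.17.0, e-value limit 1e-10) against GENCODE M21 coding sequences of GRCm38. They also gave the families, in place of a planned match to proteins, a choice made after the data were seen. Figures and medians used Python 3.11.15, pandas 2.3.3 and matplotlib 3.10.9.

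The members, families and rules were chosen with earlier results of these data known. Named peaks were the 6 largest rises called without overlap, the 6 lowest changes, the 6 highest Ctrl levels per kb, the 6 with most Pol II S2P, the highest score of each type with at least 5 tested members, and the highest scores of each family. Sequences were chosen among these. Frame, parent and repeat counts were added after the data were seen. Peaks on X and the IgG libraries entered no comparison.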

Additional observations from a re-analysis of the deposited data

Results flagged for a closer look

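Pseudogene peaks on the X chromosome, which entered no comparison, rose less than those on autosomes. There were 234 of them, or 30.9% of all 757 pseudogene peaks, whereas 8.72% of all H4K20me1 peaks lay on X. Their summed scores were 100749 and 138358 for the Ctrl libraries, and 145337 and 161151 for the sKO libraries, a log2 ratio of 0.36 between the genotype means, against 1.11 for the 520 autosomal members. No length limit was set for the peaks on X, unlike for the members. The median change of single pseudogene peaks on X was 0.33, and that of the other 3683 peaks on X was 0.40. Most of these peaks were single peaks of their gene, and 4930519F16Rik, a transcribed unitary pseudogene, had 6. The difference between X and the autosomes was not tested.

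The 3 autosomal pseudogene peaks at or over 50000 bases had summed Ctrl scores of 4449 and 6751 and sKO scores of 8839 and 9343, a log2 ratio of 0.70. A further 186 Pol II S2P peaks were listed with an autosomal pseudogene outside the members, with Ctrl sums of 14254 and 16881 against sKO sums of 20593 and 14435, a log2 ratio of 0.17 with overlapping genotypes.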

How the results depend on the processing

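Relative to 455 members called higher and 0 lower, equal totals gave 125 and 16 and quantile normalisation 44 and 82. Of all 40902 tested peaks, equal totals called 22.6% higher and 4.41% lower. Quantile normalisation called 4738 of them higher and 4746 lower. The median log2 fold change of the members went from 1.15 to 0.17 and to -0.039, a reversal. Under quantile normalisation the median of all tested peaks was -0.0074. The distance of the member median from that of all tested peaks, 0.01, became -0.032 under quantile normalisation and 0.04 with a mean over 200. Leaving out 1 library, with the lone library assumed to vary like the other genotype, gave 231 to 506 calls higher, 0 to 2 lower and medians of 0.95 to 1.40. With an overlap fraction of at least 0.5, which leaves fewer peaks, 110 of 135 were called. The share of the score, 0.076 percentage points higher in sKO, was 0.039 higher over peaks under the length limit and 0.019 for those members with an overlap fraction of at least 0.5. The unprocessed less processed median ran from -0.33 to -0.14 without 1 library. Pol II S2P calls higher went from 0 to 2 on equal totals, 1 under quantile normalisation and 0 to 1 without 1 library. Members with a protein-coding gene, 5 in all, had a median 0.14 above the others.

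On equal totals the sign of 22 of 59 named peaks turned, of which 3 were called on neither scale (CT033759.4 -0.83, Gm18252 -0.76, Gm21182 -0.16) and 19 on at least 1, Gm2445 to -0.52, Gm5578 -0.74, Gm47672 and Best4-ps -0.70, Gm6483 -0.67, Gm10250 -0.38, Gm44315 -0.33, Gm45506 -0.30, Gm12445 -0.29, Gm6070 -0.24, Gm17878, Gm45514 and Gm48618 -0.21, Gm14153 -0.14, Gm43516 -0.13, ENSMUSG00000118576 -0.11, Gm13186 -0.078, Gm8810 -0.072 and Ppp4r1l-ps -0.049, and another 19 lost their call. Calls were lost without sKO library 2 for 21, without sKO library 1 for 14 and without Ctrl library 1 for 3. The cause was not tested.

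With the replicate number as a block, 464 members were called and no named peak changed its call. The numbers do not pair the libraries, since deviations of same-numbered libraries correlated at 0.03 for H4K20me1 and -0.04 for Pol II S2P over peaks.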
